A study of Mus musculus with 14 samples.

Results

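The genes described here are the BMP and GDF ligand genes of the mouse forelimb bud: Bmp1, Bmp2, Bmp3, Bmp4, Bmp5, Bmp6, Bmp7, Gdf5 and Gdf6. They were chosen by gene symbol from the 23284 symbols counted, with earlier results of these data known. RNA-seq had been done on forelimb buds of NMRI mouse embryos in 4 groups, and the question was how the transcripts of these genes differ when SMAD4, the common mediator of BMP and TGFβ signal transduction, is lost from the limb bud mesenchyme. Wild-type embryos carried Smad4+/+ and the PrxCreT/+ transgene, with 3 embryos at E10.0 (30 somites) and 3 at E10.5 (35 somites). Smad4Δ/Δc embryos carried 1 null and 1 conditionally deleted Smad4 allele with the same PrxCreT/+ transgene, with 4 embryos at each stage. Both forelimb buds of 1 embryo made 1 library, so replicates are separate embryos.

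The CRE transgene is driven by Prrx1 regulatory sequence in the limb mesenchyme, so that the ectoderm, endothelium and migrating muscle precursors in the dissected buds keep the conditional allele intact, with the null allele beside it. Controls carry the CRE transgene too, but no null allele. A whole bud was sequenced, and fewer cells of a type and less RNA per cell cannot be told apart in any value below.

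BMPs and GDFs are secreted dimers of the TGFβ superfamily. They are made as precursors, cut by proprotein convertases, and bind type I and type II serine/threonine kinase receptors, which phosphorylate SMAD1, SMAD5 and SMAD9; these enter the nucleus with SMAD4. In the limb bud, Bmp2, Bmp4 and Bmp7 are expressed in mesenchyme and in the apical ectodermal ridge, and antagonists such as GREM1 limit their activity during outgrowth. BMP1 bears the name but is no ligand of the superfamily. It is an astacin metalloprotease, the procollagen C-proteinase, which also cleaves the antagonist chordin, and it is therefore kept apart from the other 8 genes where levels are summed.

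Promoter sequence was at hand for 3 of the 9 genes, Bmp4, Bmp5 and Bmp6, in the RefSeq table of the GRCm38.p6 build. The 250 bases upstream of each annotated start are shown because these genes include the most abundant ligand per exon length (Bmp4), the ligand called lower in E10.5 mutants (Bmp5) and the gene that was higher at E10.5 in both genotypes (Bmp6). Capitals mark AGAC and its reverse complement GTCT, the short sequence recognized by SMAD3 and SMAD4 MH1 domains.
Bmp4, chr14:46390670-46390919, minus strand: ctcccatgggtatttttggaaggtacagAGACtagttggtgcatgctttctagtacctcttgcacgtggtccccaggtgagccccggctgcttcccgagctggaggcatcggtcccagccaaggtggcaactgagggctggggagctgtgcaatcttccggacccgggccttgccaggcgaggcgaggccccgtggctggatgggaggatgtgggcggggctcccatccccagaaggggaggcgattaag
Bmp5, chr9:75775115-75775364, plus strand: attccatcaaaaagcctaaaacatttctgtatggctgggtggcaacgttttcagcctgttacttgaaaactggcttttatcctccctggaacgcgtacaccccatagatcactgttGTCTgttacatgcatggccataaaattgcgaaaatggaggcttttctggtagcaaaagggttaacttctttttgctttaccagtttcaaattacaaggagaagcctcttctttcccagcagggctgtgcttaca
Bmp6, chr13:38345466-38345715, plus strand: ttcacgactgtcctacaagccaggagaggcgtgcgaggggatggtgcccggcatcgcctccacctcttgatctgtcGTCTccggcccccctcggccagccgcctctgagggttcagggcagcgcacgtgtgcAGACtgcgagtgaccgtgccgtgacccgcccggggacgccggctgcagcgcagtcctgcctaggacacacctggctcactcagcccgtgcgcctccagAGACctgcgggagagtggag

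AGAC was found on either strand once in the Bmp4 window, once in the Bmp5 window and 3 times in the Bmp6 window, and 82.9% of all 32851 promoter windows of this length hold it. Longer motifs were searched on both strands as well. GTCTAGAC (a palindrome held by 0.167% of windows), GGCGCC (a palindrome held by 9.59%) and GACCACCCA (0.225%) had 0 matches in all 3 windows, which says only that these letters are not in these bases. The windows differ in base composition. GC content was 63.2% for Bmp4, 68.8% for Bmp6 and 42.8% for Bmp5 (median of all windows 52.4%), and the number of CpG dinucleotides was 11, 22 and 4 in that order (median 6).

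Between 34066930 and 61691258 reads per library were counted on genes, and levels are given as CPM, counts scaled to library size, after TMM normalization, with 12393 genes tested. Smad4 averaged 161 ± 8.43 CPM (SD, n = 3) in wild type and 39.8 ± 4.19 CPM (SD, n = 4) in Smad4Δ/Δc buds at E10.0. At E10.5 it averaged 166 ± 2.27 and 37.0 ± 3.43 CPM, again with no overlap. Mutant libraries 4 and 5 of both stages stood apart: the ribosomal RNA precursor Rn45s took 1.72% to 8.05% of their reads and 0.151% to 0.478% in the other 10 libraries. All 4 are mutants, so what sets them apart is partly confounded with genotype. Each stage also has mutants with low Rn45s (mutants 1 and 3 at E10.0, mutants 1 and 2 at E10.5). Genotype results were recomputed without mutant libraries 4 and 5. Tbx5, the forelimb T-box gene, averaged 90.03 to 136 CPM per group, while the hindlimb gene Pitx1 averaged 0.133 CPM or less. Tbx4, also a hindlimb gene, moved with genotype and stage. Wild-type means were 3.26 CPM at E10.0 and 7.80 CPM at E10.5, and mutant means 3.94 and 13.5 CPM. At the later stage the groups did not overlap and it was called higher in mutants (log2 fold change 0.79, edgeR exact test, FDR = 0.0955). It rose with stage in both genotypes (1.26 and 1.79 on the log2 scale). Its part in the results was not tested.

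Marker lists of other cell types in the bud were summed per library. For limb ectoderm and ridge (17 of 19 genes tested), 1 gene (Krt5) was lower in mutants at E10.0 and 1 (Fgf9) higher at E10.5. Its summed level was 332 to 421 CPM in wild type and 268 to 402 in mutants at E10.0, and 312 to 328 against 235 to 325 at E10.5, so the groups overlapped at both stages. Fgf8, a marker of the ridge, averaged 17.2 CPM in wild type and 17.7 in mutants at E10.0, then 13.4 and 14.1. The list as a whole leaned the other way, with a median log2 fold change of -0.09 at E10.0 and -0.10 at E10.5. Mesothelium markers did move with genotype. At E10.0, 3 of 5 tested genes (Wt1, Upk3b, Lrrn4) were higher in mutants, with sums of 15.8 to 29.6 CPM against 8.28 to 11.7, and at E10.5, 2 (Wt1, Upk3b) were lower, with 6.38 to 10.3 against 10.98 to 13.8. Mesenchyme markers (13 tested) included 5 lower at E10.0 and 4 lower and 1 higher at E10.5, muscle precursor markers (5 tested) 2 higher at E10.0 and 1 lower at E10.5, and endothelium (8 tested) 0 by the exact test at both stages, with 2 and 1 at an unadjusted p under 0.05. Blood and macrophage markers (7 tested) included 1 higher at E10.0, and neural crest and Schwann precursor markers (1 tested) 1 lower at E10.5. The E10.5 mesenchyme sum was 2209 to 2362 CPM in mutants and 2409 to 2551 in wild type, without overlap. For neural crest and Schwann precursors it was 8.14 to 10.7 against 10.96 to 11.2, also without overlap. The sums of muscle, endothelium and blood markers overlapped at both stages. The part of these cell types in the results below was not tested.

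Levels of different genes can be compared only per length, and RPKM (TMM-normalized CPM divided by the exon length in kb) was used for this. Among the 8 ligands Bmp4 had the highest mean level in every group, from 24.1 ± 1.29 RPKM (SD, n = 3) in E10.0 wild type to 31.8 ± 4.06 RPKM (SD, n = 4) in E10.5 mutants. Bmp7 followed with 12.7 to 16.4 RPKM. Together these 2 genes gave most of the ligand signal, as Bmp4 held 55.4% to 59.8% and Bmp7 29.3% to 34.5% of the summed RPKM of the 8 ligands in the group means. Bmp5, Gdf6, Bmp2 and Bmp3 lay between 0.345 and 1.97 RPKM, and Gdf5 and Bmp6 at 0.0811 to 0.478 RPKM. Bmp1, the protease, stood at 18.8 to 24.9 RPKM.

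In wild-type buds the order of the means was Bmp4, Bmp1, Bmp7, Bmp5, Gdf6, Bmp2, Bmp3, Gdf5 and Bmp6 at E10.0, and the same at E10.5 except that Gdf5 and Bmp3 changed places. The library ranges of Bmp4 and Bmp1 overlapped at both stages, those of Bmp5 and Gdf6 at E10.0 only, those of Bmp3 and Gdf5 at both, and those of Bmp3 and Bmp6 at E10.5. In E10.5 mutants Bmp2 and Bmp3, at 1.56 ± 0.0379 and 1.30 ± 0.275 RPKM, stood above Bmp5 at 1.28 ± 0.209 RPKM (SD, n = 4 each), although the ranges of neighbours among these 3 overlapped. The order at the top depends on the length used. Per coding length, Bmp7 exceeded Bmp1 in every group, and in E10.0 wild type the mean of Bmp7 (46.7) was above that of Bmp4 (43.8), with overlapping ranges. In E10.5 mutants Bmp5 (3.79) was then above Bmp3 (2.89), again with overlap.

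**Figure D1:**
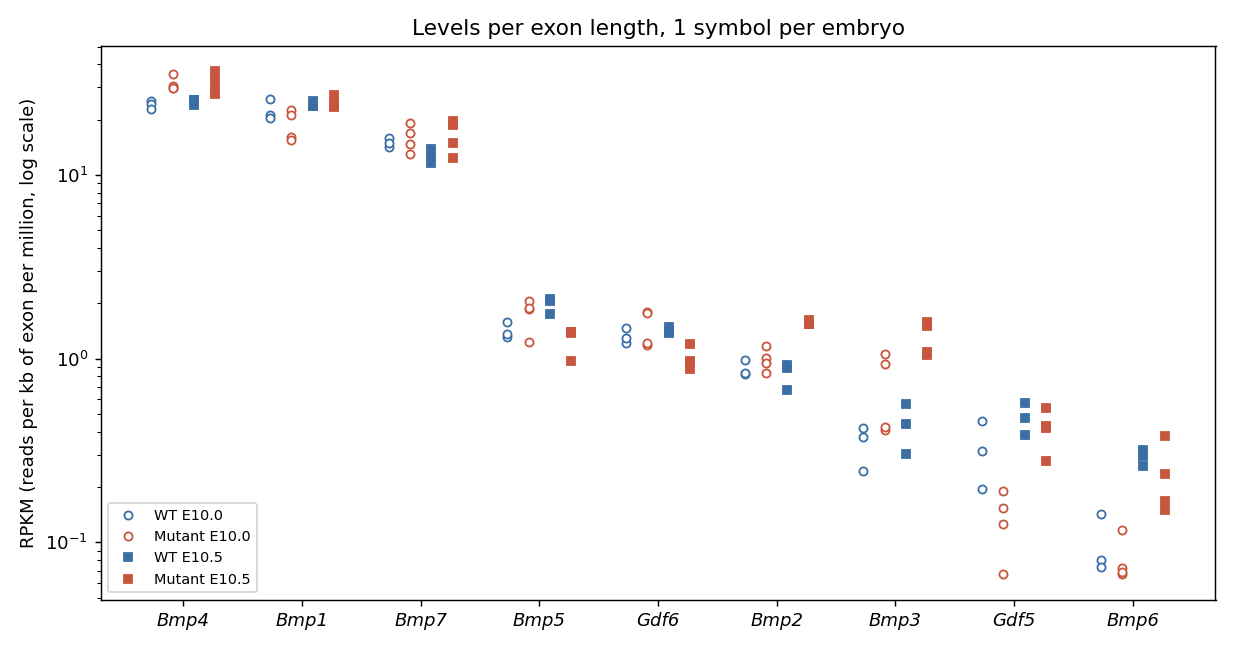
Level of each gene per exon length in every library, as RPKM on a log axis, for wild type (blue) and Smad4Δ/Δc (red) at E10.0 (open circles) and E10.5 (filled squares). Bmp4, Bmp1 and Bmp7 lie at 11.6 RPKM or more, and the other 6 genes at 2.12 RPKM or less, in every library.

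The summed level of the 8 ligands was 42.0 to 44.5 RPKM in wild type and 48.7 to 60.4 RPKM in mutants at E10.0, and 41.2 to 44.5 and 46.0 to 62.4 RPKM at E10.5. The ranges did not overlap at either stage, and most of the sum is Bmp4 and Bmp7. Mutant libraries 1 and 3 of E10.0 gave 48.7 and 49.6 RPKM and mutant libraries 1 and 2 of E10.5 gave 46.0 and 50.4 RPKM, also above wild type.

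All 9 genes passed the filter of 1 CPM in 3 libraries. Bmp6 passed it with 3 libraries and Gdf5 with 5, all of E10.5 or, for Gdf5, 1 at E10.0, so that these genes entered through the later stage. A gene was called when the exact test of edgeR gave an FDR (Benjamini-Hochberg, over the 12393 genes) no higher than 0.1 and the groups differed 1.2-fold or more. At E10.0, 2 of the 9 genes (22.2%) were called higher in mutants, Bmp4 and Bmp3, against 3.33% of all genes tested, and 1 (11.1%) lower, Gdf5, against 3.28%. The groups did not overlap for 2 of 9 genes, Bmp4 and Gdf5, against 17.8% of all genes. At E10.5, 3 of 9 (33.3%) were called higher, Bmp2, Bmp3 and Bmp4, against 2.19%, and 1 (11.1%) lower, Bmp5, against 1.54%. The groups did not overlap for 5 of 9 genes (those 4 and Gdf6), against 13.0% of all genes. The median log2 fold change of the 9 genes was 0.17 at the earlier and 0.04 at the later stage, while that of all genes tested was within 0.02 of 0.

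**Figure D2:**
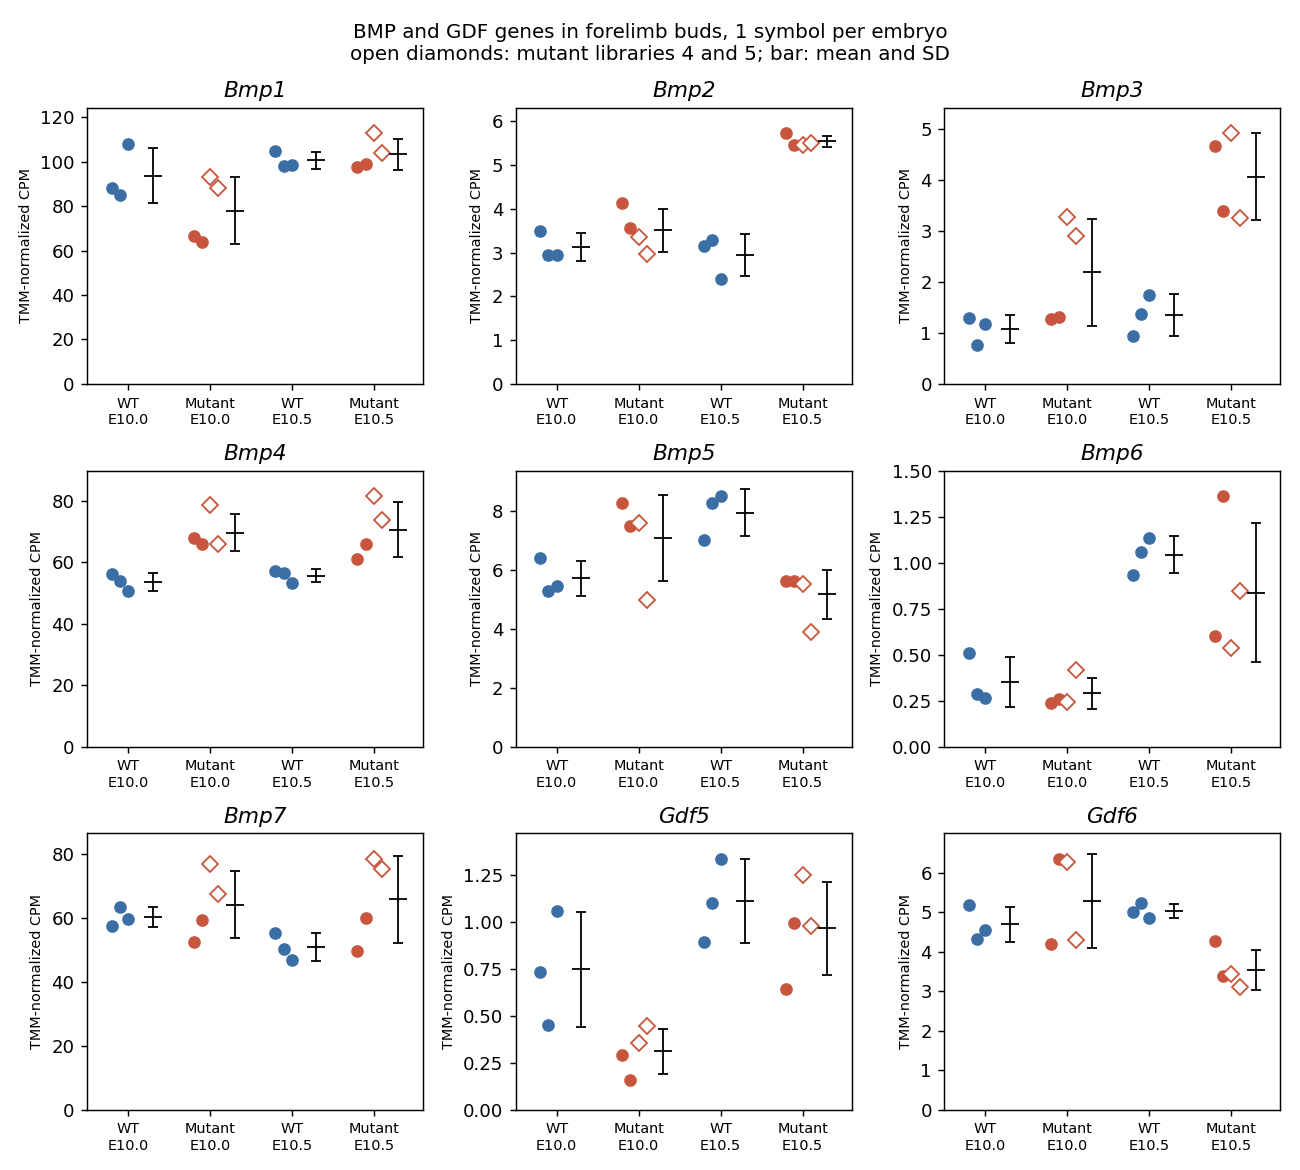
TMM-normalized CPM of the 9 genes in every library, with the mean and SD of each group beside the points; filled circles are libraries 1 to 3 and open diamonds are mutant libraries 4 and 5. For Bmp2 the 4 mutant embryos of E10.5 sit between 5.46 and 5.74 CPM, above all other libraries, and for Bmp3 the E10.0 mutants split into 1.27 and 1.32 against 3.28 and 2.90 CPM.

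Bmp4, the most abundant ligand per exon length, was higher in mutants at both stages. At E10.0 the 3 wild-type embryos had 56.3, 54.0 and 50.6 CPM and the mutant embryos 1, 3, 4 and 5 had 68.1, 65.8, 78.7 and 66.0 CPM. Every mutant exceeded every wild-type embryo. The log2 fold change was 0.38 ± 0.08 (SE; edgeR exact test, FDR = 0.0114), a 29.9% higher mean. At E10.5 wild type had 57.2, 56.6 and 53.2 CPM and mutants 1, 2, 4 and 5 had 61.1, 66.1, 81.7 and 73.7 CPM, again without overlap. The log2 fold change was 0.34 ± 0.10 (SE; FDR = 0.0341).

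The 2 stages differ in how Bmp4 stands up to leaving libraries out. Without mutant libraries 4 and 5 the E10.0 value was 0.34 (FDR = 0.00376) and still called, while at E10.5 it was 0.20 and no longer called (FDR = 0.242). At E10.0 the call was lost without wild-type embryo 3 (0.35, FDR = 0.151). At E10.5 it was lost without mutant 4 (0.26, FDR = 0.211), mutant 5 (0.32, FDR = 0.127), wild-type embryo 2 (0.36, FDR = 0.125) or wild-type embryo 3 (0.32, FDR = 0.2003). The E10.5 call was also lost with replicate number fitted as a block (0.16, quasi-likelihood test, FDR = 0.271). Bmp4 lies on chromosome 14 (47003195 to 47010344, minus strand, mm9), and 89 bases of its exons overlap Gm15217 on the other strand, which had at most 33 reads in a library.

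Bmp2 and Bmp7 share with Bmp4 an expression in mesenchyme and ridge. At E10.0 the Bmp2 levels of wild type (3.49, 2.94 and 2.95 CPM) and of mutants 1, 3, 4 and 5 (4.14, 3.57, 3.36 and 2.98 CPM) overlapped, with a log2 fold change of 0.17 ± 0.13 (SE; FDR = 0.652). At E10.5 wild type had 3.15, 3.30 and 2.41 CPM, and mutants 1, 2, 4 and 5 had 5.74, 5.46, 5.46 and 5.50 CPM. The mutant embryos were nearly alike and far above wild type. Bmp2 thus rose by 0.91 ± 0.14 on the log2 scale (SE; edgeR exact test, FDR = 9.51e-06), or 1.88-fold, and without mutant libraries 4 and 5 by 0.93 (FDR = 2.84e-04). The call was kept in every one of the 14 fits that left out 1 library, with log2 fold changes of 0.79 to 1.01. Per length, Bmp2 was 2.83% to 3.65% of Bmp4 in E10.5 wild type and 4.18% to 5.88% in E10.5 mutants, with no overlap, and 3.41% to 3.88% against 2.67% to 3.80% at E10.0, with overlap. Bmp2 lies on chromosome 2 (133377895 to 133388621, plus strand, mm9).

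Bmp7 was not called at either stage. At E10.0 wild type had 57.3, 63.5 and 59.7 CPM and mutants 1, 3, 4 and 5 had 52.5, 59.5, 76.9 and 67.6 CPM. The log2 fold change was 0.09 ± 0.13 (SE; FDR = 0.803), and without mutant libraries 4 and 5 the sign turned, to -0.09. At E10.5 wild type had 55.4, 50.4 and 46.8 CPM and mutants 1, 2, 4 and 5 had 49.6, 60.0, 78.6 and 75.5 CPM, a log2 fold change of 0.37 ± 0.16 (SE; FDR = 0.187). At both stages libraries 4 and 5 were the highest 2, and mutant 1 lay among or below the wild-type embryos. The E10.5 difference was called without mutant 1 of that stage (0.50, FDR = 0.00815) or without mutant 1 of E10.0 (0.38, FDR = 0.0994), and was 0.12 (FDR = 0.656) without mutant libraries 4 and 5. Bmp7 lies on chromosome 2 (172693513 to 172765822, minus strand, mm9).

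Bmp3 encodes a BMP family member known as an antagonist of osteogenic BMP signals. Its E10.5 levels were 0.937, 1.37 and 1.75 CPM in wild type and 4.66, 3.40, 4.92 and 3.26 CPM in mutants 1, 2, 4 and 5, so that every mutant was above every wild-type embryo. Bmp3 rose by 1.58 ± 0.29 on the log2 scale (SE; edgeR exact test, FDR = 2.30e-04), 3.00-fold, and the value without mutant libraries 4 and 5 was also 1.58 (FDR = 5.42e-06). At E10.0 wild type had 1.30, 0.757 and 1.17 CPM, and mutants 1, 3, 4 and 5 had 1.27, 1.32, 3.28 and 2.90 CPM. Mutant 1 lay within wild type and mutant 3 just above its highest embryo, while mutants 4 and 5, the libraries with high Rn45s, were far above both. The log2 fold change of 1.01 ± 0.41 (SE) was called (FDR = 0.0529), but without these 2 libraries it was 0.28 and not called (FDR = 0.581). The call thus depended on mutants 4 and 5, and what sets them apart from mutants 1 and 3, of the same genotype, was not tested. The E10.0 call was also lost without mutant 4 alone (0.75, FDR = 0.156), mutant 5 alone (0.84, FDR = 0.186), wild-type embryo 2 (0.81, FDR = 0.266) or wild-type embryo 3 (1.08, FDR = 0.214), and in the quasi-likelihood test (FDR = 0.137). With replicate number fitted as a block, the E10.0 value was 0.07 (quasi-likelihood test, FDR = 0.905). Bmp3 counts were 37 to 76 reads in wild type and mutants 1 and 3 at E10.0, and 118 and 120 in mutants 5 and 4. The gene lies on chromosome 5 (99283458 to 99309979, plus strand, mm9).

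Bmp5 and Bmp6 are close relatives of Bmp7. Bmp5 at E10.5 had 7.02, 8.27 and 8.51 CPM in wild type and 5.62, 5.62, 5.52 and 3.91 CPM in mutants 1, 2, 4 and 5. All mutants were lower, mutant 5 most of all. Bmp5 fell by 0.61 ± 0.14 on the log2 scale (SE; edgeR exact test, FDR = 0.0214), to 0.651 times the wild-type mean. Without mutant libraries 4 and 5 the log2 fold change was -0.49 and still called (FDR = 0.0979). The call was lost without mutant 5 (-0.51, FDR = 0.147), wild-type embryo 2 (-0.58, FDR = 0.173) or wild-type embryo 3 (-0.55, FDR = 0.168). It was also lost with replicate number fitted as a block (-0.44, quasi-likelihood test, FDR = 0.165). At E10.0 the levels were 6.40, 5.28 and 5.46 CPM in wild type and 8.26, 7.48, 7.59 and 4.97 CPM in mutants 1, 3, 4 and 5. Here 3 of 4 mutants were above and mutant 5 below all wild-type embryos, with a log2 fold change of 0.31 ± 0.17 (SE; FDR = 0.361) that was called without mutant libraries 4 and 5 (0.48, FDR = 0.0368). Bmp5 lies on chromosome 9 (75623171 to 75748117, plus strand, mm9), and 1878 bases of its exons overlap Gm16662 on the other strand. The counts do not use strand, so the 2 cannot be told apart there.

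Bmp6 was near the floor of detection at E10.0, with 0.512, 0.286 and 0.264 CPM in wild type and 0.239, 0.260, 0.246 and 0.418 CPM in mutants 1, 3, 4 and 5, which is 9 to 28 reads per library. At E10.5 it had 0.937, 1.06 and 1.14 CPM in wild type and 0.605, 1.37, 0.538 and 0.847 CPM in mutants 1, 2, 4 and 5. Genotypes overlapped at both stages, with log2 fold changes of -0.32 ± 0.39 (SE; FDR = 0.763) and -0.31 ± 0.33 (SE; FDR = 0.884), and no difference was detectable at this depth. Bmp6 lies on chromosome 13 (38436995 to 38592183, plus strand, mm9), where 236 bases of its exons overlap Txndc5 on the other strand.

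Gdf5 and Gdf6 encode growth and differentiation factors known for their roles in joints. At E10.0 Gdf5 had 0.731, 0.450 and 1.06 CPM in wild type (22 to 48 reads) and 0.291, 0.156, 0.355 and 0.443 CPM in mutants 1, 3, 4 and 5 (9 to 18 reads). All mutants were lower, the nearest by less than 0.01 CPM. Gdf5 fell by 1.29 ± 0.44 on the log2 scale (SE; edgeR exact test, FDR = 0.0134), and the value without mutant libraries 4 and 5 was -1.71 (FDR = 0.00297). Wild-type embryo 3 was the highest, and without it the value was -0.96 and not called (FDR = 0.306). At E10.5 wild type had 0.889, 1.0999 and 1.33 CPM and mutants 0.640, 0.995, 1.25 and 0.977 CPM, which overlapped, with a log2 fold change of -0.22 ± 0.25 (SE; FDR = 0.9404). Gdf5 lies on chromosome 2 (155766759 to 155771103, minus strand, mm9), and 936 bases of its exons overlap Gm15557 on the other strand. As the counts do not use strand, reads of Gdf5 and Gm15557 cannot be told apart there.

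Gdf6 showed 5.19, 4.31 and 4.56 CPM in E10.0 wild type and 4.19, 6.35, 6.25 and 4.30 CPM in mutants 1, 3, 4 and 5. The mutants lay on both sides of wild type (log2 fold change 0.17 ± 0.18, SE; FDR = 0.692). At E10.5 wild type had 4.998, 5.22 and 4.86 CPM and mutants 1, 2, 4 and 5 had 4.27, 3.38, 3.42 and 3.09 CPM. All mutants were lower, but the log2 fold change of -0.50 ± 0.11 (SE) did not pass the test (FDR = 0.143). It passed without mutant 1 of E10.5 (-0.60, FDR = 0.0703), without mutant 1 of E10.0 (-0.49, FDR = 0.0982) and when E10.5 was fitted apart (-0.49, FDR = 0.0893), and was -0.38 (FDR = 0.409) without mutant libraries 4 and 5. Gdf6 lies on chromosome 4 (9771519 to 9789492, plus strand, mm9).

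Bmp1 was not called in either genotype comparison. At E10.0 wild type had 88.1, 84.9 and 108 CPM and mutants 1, 3, 4 and 5 had 66.4, 64.0, 93.3 and 88.2 CPM. Mutants 1 and 3 lay below all wild-type embryos, and mutants 4 and 5 within their range. With all libraries the log2 fold change was -0.26 ± 0.18 (SE; edgeR exact test, FDR = 0.2102), and without mutant libraries 4 and 5 it was -0.50 and called lower (FDR = 7.89e-05). Leaving out mutant 4 alone gave -0.36 (FDR = 0.0457), also called. At E10.5 wild type had 105, 98.1 and 98.7 CPM and mutants 97.8, 99.0, 113 and 104 CPM, with a log2 fold change of 0.04 ± 0.06 (SE; FDR = 0.982). Bmp1 lies on chromosome 14 (70874364 to 70920067, minus strand, mm9).

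**Figure D3:**
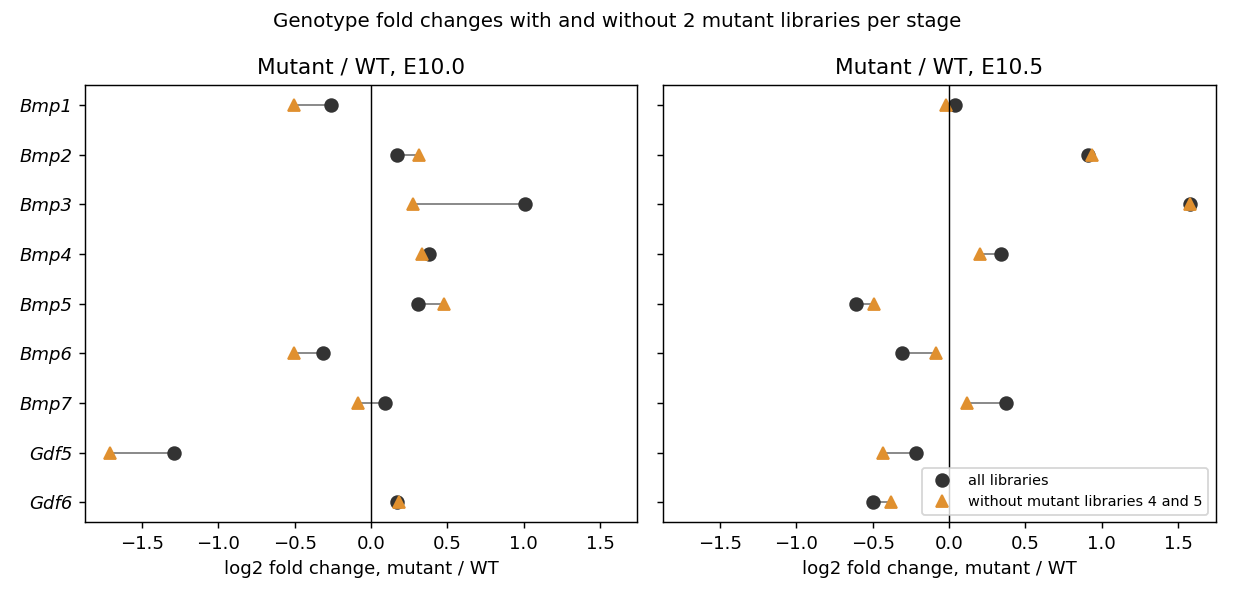
Log2 fold change of mutants over wild type for the 9 genes at E10.0 (left) and E10.5 (right), with all libraries (circles) and without mutant libraries 4 and 5 (triangles). The 2 values of Bmp2 and Bmp3 at E10.5 nearly coincide, whereas Bmp3 at E10.0 moves from 1.01 to 0.28.

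Leaving out mutant libraries 4 and 5 shows where they bear on the genotype results. At E10.0 they were above mutants 1 and 3 for 4 of 9 genes (Bmp1, Bmp3, Bmp7, Gdf5) and below them for Bmp2. At E10.5 they were above mutants 1 and 2 for 3 of 9 (Bmp1, Bmp4, Bmp7) and below them for Bmp5. The share of all genes tested that separate in this way was not counted, so these counts cannot be read as particular to the 9 genes. The calls made both with and without mutant libraries 4 and 5 were Bmp4 and Gdf5 at E10.0 and Bmp2, Bmp3 and Bmp5 at E10.5.

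The stage comparison asked how each gene changed from E10.0 to E10.5. In wild-type buds 1 of 9 genes (11.1%) was called higher at E10.5, Bmp6, against 5.39% of all genes tested, and 0 were called lower, against 4.74%. At an unadjusted p under 0.05 the exact test gave 2 genes, Bmp6 and Bmp5, against 21.0% of all genes. The groups did not overlap for 3 of 9 genes (Bmp5, Bmp6, Bmp7), against 37.0% of all genes. In mutant buds 5 of 9 (55.6%) were called higher, Bmp1, Bmp2, Bmp3, Bmp6 and Gdf5, against 10.8%, and 2 (22.2%) lower, Bmp5 and Gdf6, against 8.40%. The groups did not overlap for 4 of 9 (Bmp1, Bmp2, Bmp6, Gdf5), against 20.0%. Bmp6 and Gdf5 passed the filter through libraries of E10.5, apart from 1 of E10.0 wild type for Gdf5. The mutant counts thus include genes admitted through the stage where they were high, and are no fair match to the shares of all genes. The median log2 fold change of the 9 genes was 0.10 in wild type and 0.41 in mutants. The mutant groups hold 1 embryo more per stage, and the comparisons between stages share their libraries with the comparisons between genotypes.

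Bmp6 was higher at E10.5 in both genotypes. The E10.0 embryos had 0.239 to 0.512 CPM and the E10.5 embryos 0.538 to 1.37 CPM, so that the stages did not overlap across all 14 libraries. The log2 fold change was 1.54 ± 0.33 in wild type (SE; edgeR exact test, FDR = 0.00113) and 1.55 ± 0.39 in mutants (SE; FDR = 8.52e-05), or 2.95-fold and 2.88-fold. Bmp6 passed the filter through 3 libraries of E10.5 alone, the stage where it was high, so the count of wild-type calls rests on a gene admitted through its higher group. With no filter on low counts the log2 fold changes were 1.55 (FDR = 0.00185) and 1.54 (FDR = 2.14e-04). Of the 14 fits that left out 1 library, 11 tested Bmp6 and called it in both genotypes, and it fell below the filter without mutant 2, wild-type embryo 2 or wild-type embryo 3 of E10.5. Txndc5, which overlaps it, moved the other way, from 244 to 211 CPM in wild type and from 241 to 202 CPM in mutants, neither of which was called (log2 fold changes -0.21 and -0.26, both below 1.2-fold).

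The other stage changes were called in mutants and not in wild type, and the difference between the genotypes is the interaction tested further on. Bmp2 rose from a mean of 3.51 to 5.54 CPM in mutants (log2 fold change 0.65 ± 0.10, SE; edgeR exact test, FDR = 2.23e-04), while in wild type the means were 3.13 and 2.95 CPM. Gdf5 rose from 0.311 to 0.964 CPM in mutants (1.65 ± 0.34, SE; FDR = 2.00e-05), and the wild-type means were 0.746 and 1.11 CPM (0.58 ± 0.38, SE; FDR = 0.314). Bmp3 rose from 2.19 to 4.06 CPM in mutants (0.91 ± 0.38, SE; FDR = 0.0162), with means of 1.07 and 1.35 CPM in wild type. Bmp1 rose from 78.0 to 103 CPM in mutants (0.41 ± 0.15, SE; FDR = 0.00325). These 4 rises were called without mutant libraries 4 and 5 as well, where the rise of Bmp3 was 1.65 on the log2 scale in place of 0.91.

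Bmp5 and Gdf6 fell with stage in mutants. Bmp5 went from 7.08 to 5.17 CPM (-0.45 ± 0.19, SE; edgeR exact test, FDR = 0.0374), and in wild type from 5.71 to 7.93 CPM (0.47 ± 0.12, SE; FDR = 0.108), where every E10.5 embryo was above every E10.0 embryo without passing the test. The mutant fall was lost without mutant 1 of E10.0 (-0.36, FDR = 0.123), mutant 3 of E10.0 (-0.42, FDR = 0.108) or mutant 5 of E10.5 (-0.34, FDR = 0.167). The wild-type rise of Bmp5 was called in 6 of the 14 fits that left out 1 library, at FDRs of 0.0480 to 0.0969, these being the fits without mutants 1 and 5 of E10.0, mutants 1 and 5 of E10.5, wild-type embryo 1 of E10.0 and wild-type embryo 1 of E10.5. Gdf6 went from 5.28 to 3.54 CPM in mutants (-0.57 ± 0.19, SE; FDR = 0.00763) and from 4.69 to 5.03 CPM in wild type, and the mutant fall was not called without mutant libraries 4 and 5 (-0.46, FDR = 0.187). Bmp4 and Bmp7 were called in neither genotype, with stage log2 fold changes of 0.05 and -0.24 in wild type and 0.02 and 0.04 in mutants.

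**Figure D4:**
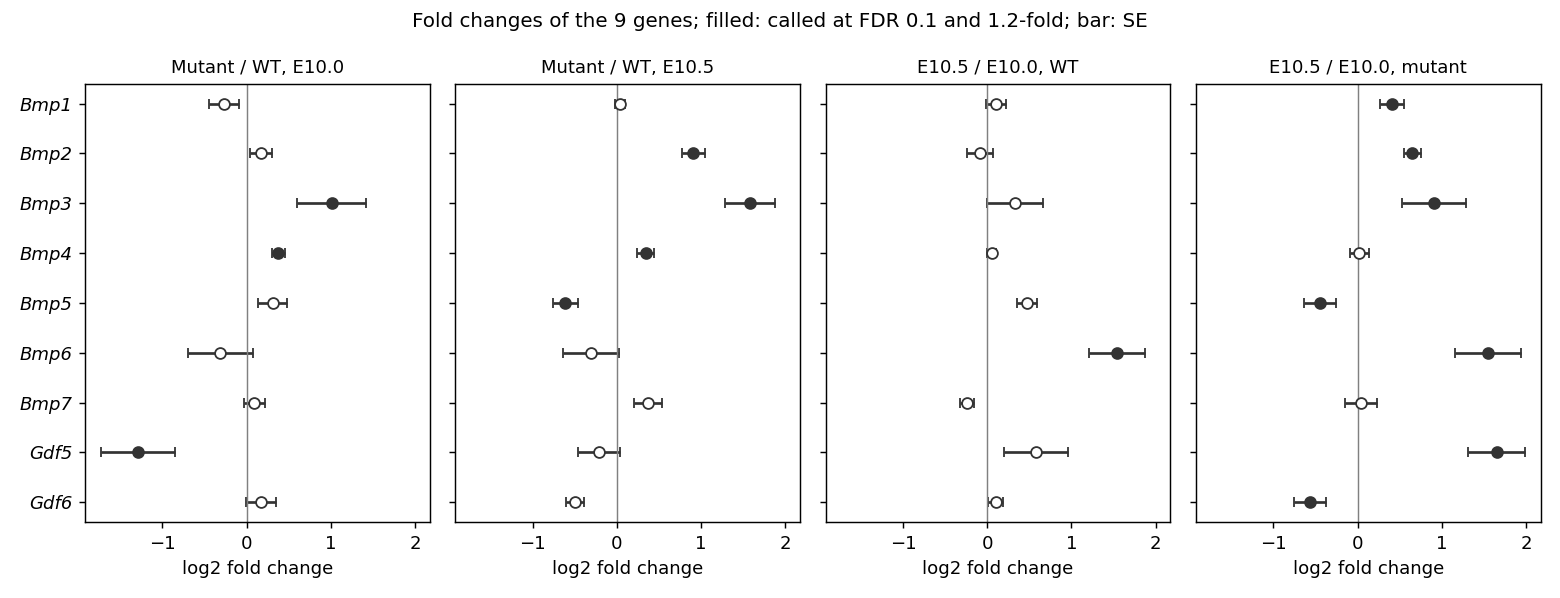
Log2 fold change and SE of the 9 genes in the 4 comparisons; filled symbols are calls. Filled symbols number 3 and 4 in the genotype comparisons (E10.0 and E10.5), 1 for stage in wild type and 7 for stage in mutants, and Bmp5 points to opposite sides in the 2 stage panels.

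Whether the genotype effect itself differed between stages was tested by the interaction term with the quasi-likelihood test of edgeR. Of the 9 genes 0 were called at an FDR of 0.1, against 0.186% of all genes tested, 4 had an unadjusted p under 0.05, against 5.76%, and DESeq2 called 2 of these, against 0.702% of the genes it tested. The smallest FDRs were those of Bmp5, with a log2 difference between the genotype effects of the stages (E10.5 less E10.0) of -0.92 (FDR = 0.3002), and Bmp2, with 0.74 (FDR = 0.339). The other 2 were Gdf6 (-0.67, FDR = 0.681) and Gdf5 (1.07, FDR = 0.823). Both genes called by DESeq2 were among these, Bmp5 (-0.93, FDR = 0.0278) and Bmp2 (0.73, FDR = 0.0869), and Bmp5 was also called in edgeR without mutant 5 of E10.0 (-1.06, FDR = 0.0634). A difference of the genotype effect between stages was therefore not shown for any of the 9 genes by the test chosen, although 2 were called by the other tool. For Bmp3 and Bmp4, called at both stages, the interaction was 0.58 (FDR = 0.951) and -0.04 (FDR = 0.982).

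Over all 14 libraries, the genes whose log2(CPM + 1) ran most like those of 6 members are given as a description, since the libraries share genotype, stage and depth. For Bmp4 these were Pdcd2 (r = 0.88) and Hs3st6 (r = 0.88), and for Bmp2 Itgb8 (r = 0.93) and Dab1 (r = 0.91). For Bmp5 they were Sfrp1 (r = 0.89) and Aif1l (r = 0.84), for Bmp7 Ppp1r15a (r = 0.94) and Syngr2 (r = 0.94), for Gdf6 Meis3 (r = 0.86) and Abcb1b (r = 0.85), and for Bmp1 Kank2 (r = 0.96) and St5 (r = 0.95), each over n = 14 libraries. Bmp6 and Gdf5 averaged less than 1 CPM and were left out. Among the members, Bmp2 ran with Bmp3 (r = 0.71) and Bmp4 with Bmp7 (r = 0.71). Bmp3 with Bmp4 (r = 0.70) and Bmp5 with Gdf6 (r = 0.69) were close behind. The lowest value was that of Bmp2 and Gdf6 (r = -0.63).

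The rest of the pathway was counted by lists of symbols. For these lists, the shares of all genes called higher and lower in mutants were 3.33% and 3.28% at E10.0. At E10.5 they were 2.19% and 1.54%. Of 24 other ligand genes of the superfamily only 7 were expressed enough to be tested. Mstn, the gene of myostatin, was higher in mutants at E10.0 (0.712 to 1.69 CPM, log2 fold change 1.23 ± 0.39, SE; edgeR exact test, FDR = 0.0024), and Gdf10 was lower at E10.5 (2.57 to 0.8901 CPM, -1.50 ± 0.22, SE; FDR = 3.39e-06). Of the convertases that cut ligand precursors (4 tested), Pcsk6 was higher at E10.0 (10.2 to 14.2 CPM, 0.48) and at E10.5 (8.66 to 13.5 CPM, 0.64), and Pcsk5 at E10.0 (17.5 to 21.8 CPM, 0.32). The Pcsk5 call was lost with the replicate block (FDR = 0.128) and without mutant 5 (FDR = 0.122), wild-type embryo 2 (FDR = 0.145) or wild-type embryo 3 (FDR = 0.202). Of the tolloid proteases and procollagens, the group of BMP1 and its substrates (7 tested), 0 were called at E10.0, where Tll1 had the smallest p (2.87 to 4.01 CPM, 0.48, FDR = 0.1105), and 1 gene had an unadjusted p under 0.05. Tll1 was called at E10.0 by DESeq2 (0.49, FDR = 0.0499), with RLE size factors, with Rn45s removed, and without mutant 3 of E10.0 or mutant 1 of E10.5. At E10.5 only Tll1, encoding a tolloid-like protease, was higher (3.96 to 5.79 CPM, 0.55 ± 0.07, SE; FDR = 0.0626). This call was lost in the quasi-likelihood test (FDR = 0.1101), with the replicate block (FDR = 0.146) and without mutant 1, 2 or 4 or wild-type embryo 1, 2 or 3 of E10.5 (FDR = 0.132 to 0.283).

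Of 12 tested BMP and activin receptors and co-receptors, Rgmb was higher in mutants at both stages (8.17 to 11.6 CPM, log2 fold change 0.51, and 12.4 to 21.3 CPM, 0.78), and Tgfbr3 at E10.5 (25.0 to 34.6 CPM, 0.47). The Tgfbr3 call was lost in the quasi-likelihood test (FDR = 0.125) and without mutant 1 (FDR = 0.133), wild-type embryo 2 (FDR = 0.392) or wild-type embryo 3 (FDR = 0.186). Extracellular antagonists moved in both directions, with 2 of 12 tested higher and 2 lower at each stage. On the log2 scale Smoc2 rose by 1.67 in E10.0 mutants and 1.49 in E10.5 mutants, and Smoc1 by 0.91 and 0.93. Grem1 fell by 1.22 and 1.09, and Fstl1 fell by 0.33 and 0.29. Fstl1 was not called without mutant libraries 4 and 5, with -0.22 and -0.17 at the 2 stages. Its call was also lost at E10.0 without wild-type embryo 1 or 3 (FDR = 0.134 and 0.151), and at E10.5 in the quasi-likelihood test (FDR = 0.105), with the replicate block (FDR = 0.197) and without mutant 4 or 5 or wild-type embryo 1, 2 or 3 (FDR = 0.108 to 0.364).

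Most BMP response genes were called lower. At E10.0, 6 of 9 were called lower (Id1, Id2, Id3, Msx2, Smad6, Smad7) and 0 higher, with a median log2 fold change of -0.59, and at E10.5, 7 of 9 (those 6 and Id4) and 0 higher, with a median of -0.64. Id3 went from 83.0 to 35.2 CPM (-1.24) and Id1 from 40.1 to 17.0 CPM (-1.24) at E10.0, and Msx2 from 39.6 to 12.6 CPM (-1.66) and Id3 from 57.8 to 22.2 CPM (-1.38) at E10.5. Of the 5 receptor-regulated Smad genes only Smad9 was called, lower at both stages (3.29 to 1.45 CPM, -1.18, and 2.03 to 0.429 CPM, -2.24), the E10.0 call being lost with the replicate block (FDR = 0.102). These gene groups had been seen in earlier results of the same data, so their direction is no independent evidence.

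**Figure D5:**
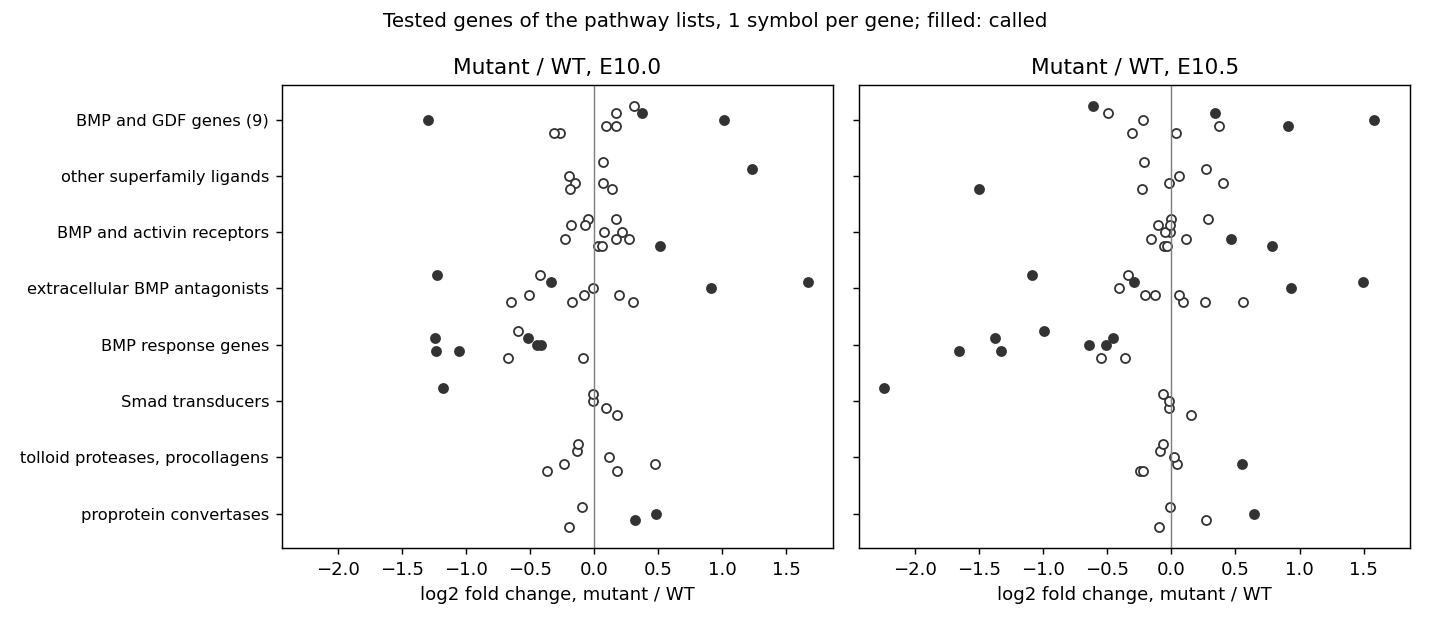
Log2 fold change of mutants over wild type for the tested genes of each list at E10.0 (left) and E10.5 (right); filled symbols are calls, and vertical offsets within a list only separate the symbols. The called response genes lie on the lower side only, whereas the called BMP and GDF genes lie on both sides of 0.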

How the data were processed

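RNA-seq of 14 forelimb bud pairs was used. Per the labels and the study's methods, the authors aligned single-end reads to mm9 with TopHat2 2.0.13, counted unique alignments to each symbol by HTSeq without strand (version not given in the sources used here), and deposited raw counts per library. Here edgeR 4.0.16 (R 4.3.3) was used. Following the study's methods, the 1041 symbols on the sex chromosomes or the mitochondrial genome were dropped. The filter (at least 1 CPM in 3 libraries) and TMM (factors 0.934 to 1.04) also followed them. So did tag-wise dispersion (prior degrees of freedom 10) and pairwise exact tests. Estimating dispersion from all 14 libraries was a choice made here, as those methods do not say which libraries shared a fit. With each pair of groups fitted apart, the exact test also called Gdf6 at E10.5 (FDR = 0.0893). It also called the wild-type stage rise of Bmp5 (FDR = 0.0185). The numbers of genes called between genotypes differ from those the study reports, and the reason was not tested. The interaction was tested by quasi-likelihood, and DESeq2 1.42.0 was an alternative. Intervals between replicates are SDs over embryos, and SEs of log2 fold changes come from the replicate variances of CPM. RPKM used exon lengths of the GENCODE annotation of mm9, whereas the study's methods name refGene models. Counts and lengths thus come from different gene models, and the effect on levels per length was not tested. The 9 genes and the pathway and marker lists were chosen with earlier results of these data known. All 9 were named in every comparison, and from each pathway list the 2 called genes with the largest change in each direction, or else the smallest p. Similar genes were the 2 with the highest r for members averaging at least 1 CPM; those of Bmp3 are not reported here. The AGAC motif, the overlapping genes and the coding-length alternative were chosen after seeing the data. No 2 libraries of a group agreed within sampling noise. Scripts were tested on simulated data; figures used Python 3.11.15 and matplotlib 3.10.9.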

Additional observations from a re-analysis of the deposited data

Results flagged for a closer look

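Among the groups of 4 mutant embryos, a gap test on the highest and lowest value (Dixon, 95% level) picked 3 of the 18 combinations of gene and stage, and chance alone picks about 1 in 20. Bmp5 in E10.5 mutant 5 was 3.91 CPM, below the other mutants at 5.52 to 5.62 CPM, and this is the library with the highest share of Rn45s reads (8.05%). Bmp6 in E10.0 mutant 5 was 0.418 CPM (17 reads), above 0.239 to 0.260 CPM in the other 3. Bmp2 in E10.5 mutant 1 was 5.74 CPM, above 5.46 to 5.50 CPM in the other 3, a gap that is large only because these values lie so close together.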

How the results depend on the processing

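For the 9 genes, 344 values recomputed under another setting kept their direction and their side of the threshold, 10 newly passed, 7 no longer passed and 8 changed sign. With 1 library left out these numbers were 567, 12, 16 and 20. Counts of called genes moved in some settings. The wild-type stage comparison had 2 calls in place of 1 with DESeq2, with the groups fitted apart, without mutant libraries 4 and 5 and with Rn45s removed, Bmp5 being the added gene. The interaction had 2 calls in place of 0 with DESeq2. When 1 library was left out, the calls ranged from 0 to 3 for genotype at E10.0, 2 to 6 at E10.5, 0 to 2 for stage in wild type, 6 to 7 for stage in mutants and 0 to 1 for the interaction. Apart from the interaction in DESeq2, the shares of all genes called in these settings were not counted. Whether the member counts moved with those shares is therefore not known. The cause of these moves was not tested.

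Replicate numbers recur across genotypes. The deviations of same-numbered libraries from their group means had r = -0.26 to 0.17 over 4 pairs. Pairs with different numbers were not set beside them, so whether such libraries share more than a number was not settled. With a replicate block, which keeps only the numbers present in both genotypes informative, 3 genes were called at E10.0 (Bmp4, Gdf5 and Bmp1, not Bmp3), 2 at E10.5 (Bmp2 and Bmp3) and 0 in the interaction, and 2 signs turned, Bmp7 at E10.0 (-0.066) and Bmp1 at E10.5 (-0.044). The shares of all genes called with the block were not counted.

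Other signs turned as well. Without mutant libraries 4 and 5 they were Bmp7 at E10.0 (-0.087), Bmp1 at E10.5 (-0.021), and the mutant stage change of Bmp4 (-0.069) and Bmp7 (-0.027). The Bmp6 interaction was -0.0090 with DESeq2 and -0.0074 with no filter on low counts. With 1 library left out, values at E10.0 ranged from -0.52 to 0.059 for Bmp6 and from -0.0076 to 0.18 for Bmp7, and at E10.5 from -0.0055 to 0.077 for Bmp1. The stage change ranged from -0.17 to 0.047 for Bmp2 in wild type, and in mutants from -0.058 to 0.089 for Bmp4 and from -0.057 to 0.16 for Bmp7. The interaction ranged from -0.11 to 0.028 for Bmp4 and from -0.36 to 0.22 for Bmp6. The coding length from a protein table was planned for the levels and not run. Depth limits Bmp6 and Gdf5, with 9 to 70 and 9 to 61 reads per library.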

Other observations

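With stage, other parts of the pathway moved as well. Of 12 tested extracellular antagonists, 4 rose from E10.0 to E10.5 in wild type and 7 in mutants, and 0 fell in either. Of 9 BMP response genes, 1 fell in wild type and 5 fell in mutants, and 0 rose. Of 12 receptors, 2 were called higher and 1 lower in wild type, and 1 higher and 1 lower in mutants. Over all genes tested the shares called higher and lower were 5.39% and 4.74% in wild type and 10.8% and 8.40% in mutants. The share of Bmp4 in the summed RPKM of the 8 ligands was 55.4% ± 1.37 (SD, n = 3) in E10.0 wild type and 59.8% ± 2.13 (SD, n = 4) in E10.0 mutants, and that of Bmp7 was 34.5% ± 2.10 and 30.3% ± 2.65. Per exon length, Bmp7 amounted to 56.4% to 65.3% of Bmp4 in E10.0 wild type and 42.7% to 56.7% in E10.0 mutants. These shares and ratios depend on the length used. Per coding length, the E10.0 wild-type mean of Bmp7 (46.7) was above that of Bmp4 (43.8), with overlapping ranges.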
